A study of Homo sapiens with 8 samples.

Results

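The genes described here are the aryl hydrocarbon receptor, its classical target genes and the aldo-keto reductases of family AKR1 that clear carbonyls, steroids and drugs. The 10 genes named for the set were AHR, AHRR, CYP1A1, CYP1B1, TIPARP, AKR1B1, AKR1B10, AKR1C1, AKR1C2 and AKR1C3. A gene was measured where an array row carried its symbol and no other, and 8 of the 10 were, among 22109 such genes in all. AHRR shared its only row with another gene and AKR1B1 had no row of its own name, so neither was analysed here. The cells were MDA-MB-231, a human triple-negative breast cancer line derived from a pleural effusion, and total RNA from 8 samples was hybridised to Affymetrix Human Gene 2.1 ST arrays. The groups were untreated controls (3 arrays), a low dose (3 arrays) and a high dose (2 arrays) of a plant preparation given for 24 h in amounts that the protocol calls sublethal. By the sample titles and the protocol this was wild yam (Dioscorea villosa) root extract from an ethanol stock, at 15 µg/mL (low) or 30 µg/mL (high). Other label fields of the same samples disagree: there the low-dose cells got 128 µg/mL of Boswellia serrata extract and the high-dose cells 46 µg/mL of 3-O-acetyl-β-boswellic acid. What the cells received is therefore unsettled, and the treated groups may not be doses of 1 preparation. The controls are labelled as having no treatment, with no mention of the ethanol vehicle, which cannot be told apart from the preparation itself. Nothing in the labels says that replicates were separate cultures, so the p-values speak only to the spread among these arrays, which may be technical.

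The aryl hydrocarbon receptor (AHR) is a ligand-activated transcription factor that waits in the cytosol bound to HSP90 and, once bound by a planar aromatic ligand, enters the nucleus, pairs with ARNT and binds xenobiotic response elements. Its best-known targets are the oxidising enzymes CYP1A1 and CYP1B1, the ADP-ribosyltransferase TIPARP and the repressor AHRR, and TIPARP and AHRR feed back to shut the receptor down. The AKR1 enzymes use NADPH to reduce aldehydes and ketones, among them products of lipid peroxidation, steroids and prostaglandins, and several of their genes are known targets of the antioxidant factor NRF2. Both groups belong to the drug-metabolising response of epithelial cells, and in breast cells CYP1B1 oxidises estradiol while AKR1C enzymes set the local balance of progesterone and androgens.

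Start-site sequences are shown first, because they carry the receptor's core motif in TIPARP and CYP1A1 and because those of AKR1C1 and AKR1C2 are nearly the same. The 250 bases before each start were read from RefSeq (GRCh38.p14). CYP1B1 and AKR1B10 had no entry. The core of the xenobiotic response element was searched as GCGTG on both strands, where the reverse reads CACGC, and is in capitals in the sequences of TIPARP and CYP1A1. TIPARP had 3 annotated starts, and the one at chr3:156674340-156674589 (plus strand) held 2 matches, 208 and 142 bases before the start, while the other starts held none.
TIPARP: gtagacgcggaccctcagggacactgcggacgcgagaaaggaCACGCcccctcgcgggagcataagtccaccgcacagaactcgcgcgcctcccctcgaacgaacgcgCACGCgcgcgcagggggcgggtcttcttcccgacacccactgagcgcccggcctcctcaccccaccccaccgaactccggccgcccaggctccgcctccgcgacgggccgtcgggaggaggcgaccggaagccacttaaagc
CYP1A1: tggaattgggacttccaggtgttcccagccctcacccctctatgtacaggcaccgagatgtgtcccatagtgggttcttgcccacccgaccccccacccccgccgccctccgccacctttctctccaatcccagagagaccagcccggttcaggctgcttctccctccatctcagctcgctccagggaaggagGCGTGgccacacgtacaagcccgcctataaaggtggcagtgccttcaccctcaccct
CYP1A1 at chr15:74725529-74725778 (minus strand) held 1 match, 57 bases before the start, and the window of AHR held none. Every window of AHRR and of AKR1B1, the named genes not analysed on the arrays, also held a match. A match to GCGTG was present in 32.2% of 35116 promoter windows of this length, so these matches are a description of the letters only.

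The AKR1C genes lie side by side on chromosome 10 in the order AKR1C1, AKR1C2, AKR1C3. Their sequences are set out with the CCAAT box (CCAAT on either strand, ATTGG in reverse) in capitals.
AKR1C1: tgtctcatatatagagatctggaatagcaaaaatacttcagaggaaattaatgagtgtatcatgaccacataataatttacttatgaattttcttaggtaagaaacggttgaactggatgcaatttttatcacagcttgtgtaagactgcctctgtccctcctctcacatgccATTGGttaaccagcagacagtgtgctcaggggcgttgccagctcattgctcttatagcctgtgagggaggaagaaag
AKR1C2: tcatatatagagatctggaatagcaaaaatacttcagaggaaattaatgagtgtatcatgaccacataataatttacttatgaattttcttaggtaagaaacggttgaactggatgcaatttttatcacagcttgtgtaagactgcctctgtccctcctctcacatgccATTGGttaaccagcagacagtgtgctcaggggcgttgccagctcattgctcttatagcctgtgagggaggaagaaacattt
AKR1C3: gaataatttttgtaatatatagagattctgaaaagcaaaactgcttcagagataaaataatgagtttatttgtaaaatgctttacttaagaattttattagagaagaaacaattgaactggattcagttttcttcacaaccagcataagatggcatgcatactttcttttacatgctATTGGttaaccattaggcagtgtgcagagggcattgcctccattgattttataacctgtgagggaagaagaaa
These windows lie at chr10:4963165-4963414 (plus strand), chr10:5003858-5004107 (minus strand) and chr10:5048531-5048780 (plus strand). AKR1C1 and AKR1C2 shared an unbroken run of 245 bases, whereas AKR1C1 and the AKR1C3 window shown shared at most 12 bases in a row and 72.4% of 261 aligned positions. Each of these windows held 1 CCAAT match, as 32.0% of all windows hold at least 1. None held GCGTG, and none held the antioxidant response element core TGACNNNGC, which was found in 10.9% of all windows. These windows lie before the start, so their likeness does not show what the array probes bind. The transcripts of these neighbours are also close copies, although transcript and probe sequences were not compared here. Probes for 1 gene may bind RNA of another, so the AKR1C values are uncertain as to which copy gave the signal.

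The arrays correlated at 0.972 to 0.994 within a group over all genes. Control 3, low 3 and high 2 stood apart in the 75th percentile of the log2 value. It was 4.73, 4.54 and 4.54 there, against 4.80 to 4.94 on the other 5 arrays. By the median, high 1 (2.71) also lay below control 3 (2.72). On the first 2 principal components control 3 lay at 51.7 and 17.6. That was away from low 3 (-9.11 and -32.8) and high 2 (19.8 and -33.5). Control 1 correlated more with low 1 (0.984) than with control 3 (0.973). Of 8 genes listed as high in this line, VIM read 8.68 to 9.10 and CD44 7.63 to 8.85. ANXA1, LGALS1, AXL and CAV1 read at least 6.6 on every array. KRT18 and KRT8, also on that list, were lower, at 4.16 to 4.86 and 2.97 to 4.42. The hormone receptor genes ESR1 and PGR, listed as low, read 1.60 to 2.18 and 1.17 to 1.65. GATA3, FOXA1 and CDH1, also listed as low, read at most 3.33. EPCAM, from the same low list, read up to 5.58 and lay above KRT8 on every array. The leukocyte marker PTPRC read 0.94 to 1.40, and CD68, which was also on the leukocyte list, read 7.68 to 8.46. No background or detection value came with the arrays, so a low level could not be told from absence of the transcript. Precision is limited by how few arrays there are. A mean under 4 over the 8 arrays was taken as dim, and CYP1A1, AKR1B10, AKR1C2 and AKR1C3 were dim by this mark. AKR1C1, with a mean of 4.31, passed it only through the low-dose arrays, since its means were 3.91 in the controls, 4.92 at the low dose and 3.98 at the high dose.

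At the low dose CYP1B1, TIPARP and AKR1C1 rose, each to at least 2.01 times the control level, and no gene of the set fell, where 1.81% of all genes fell. At the high dose none of the 8 genes passed, where 0.814% of all genes passed in either direction, although TIPARP read 2.01 times and CYP1B1 1.93 times the control level. AKR1C1 at the high dose read 1.05 times the control level. The calls are those of limma at a Benjamini-Hochberg adjusted p under 0.05 over all 22109 genes. Against control, 1.19% of all genes were called higher at the low dose and 0.425% at the high dose, set against 3 of 8 and 0 of 8 in the set. At an unadjusted p under 0.05, 5 of 8 were higher at the low dose, where 5.38% of all genes were, and 2 of 8 at the high dose, where 3.03% were. With the replicate number as a block over the control and low arrays alone, 2 of 8 were called at the low dose, AKR1C1 being lost. The median difference of the 8 genes was 0.65 at the low dose and 0.23 at the high dose on the log2 scale, beside -0.04 and -0.12 over all genes. Both comparisons use the same 3 control arrays, so they are not independent of each other. Over all genes 94 were higher and 86 lower at the high dose, and 264 higher and 400 lower at the low dose. Quantile normalization gave 326 higher and 133 lower at the high dose and 612 higher and 570 lower at the low dose, and subtracting array medians gave 179 higher and 104 lower at the high dose. With the replicate number as a block the counts were 197 higher and 1031 lower at the high dose and 483 higher and 576 lower at the low dose.

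**Figure D1:**
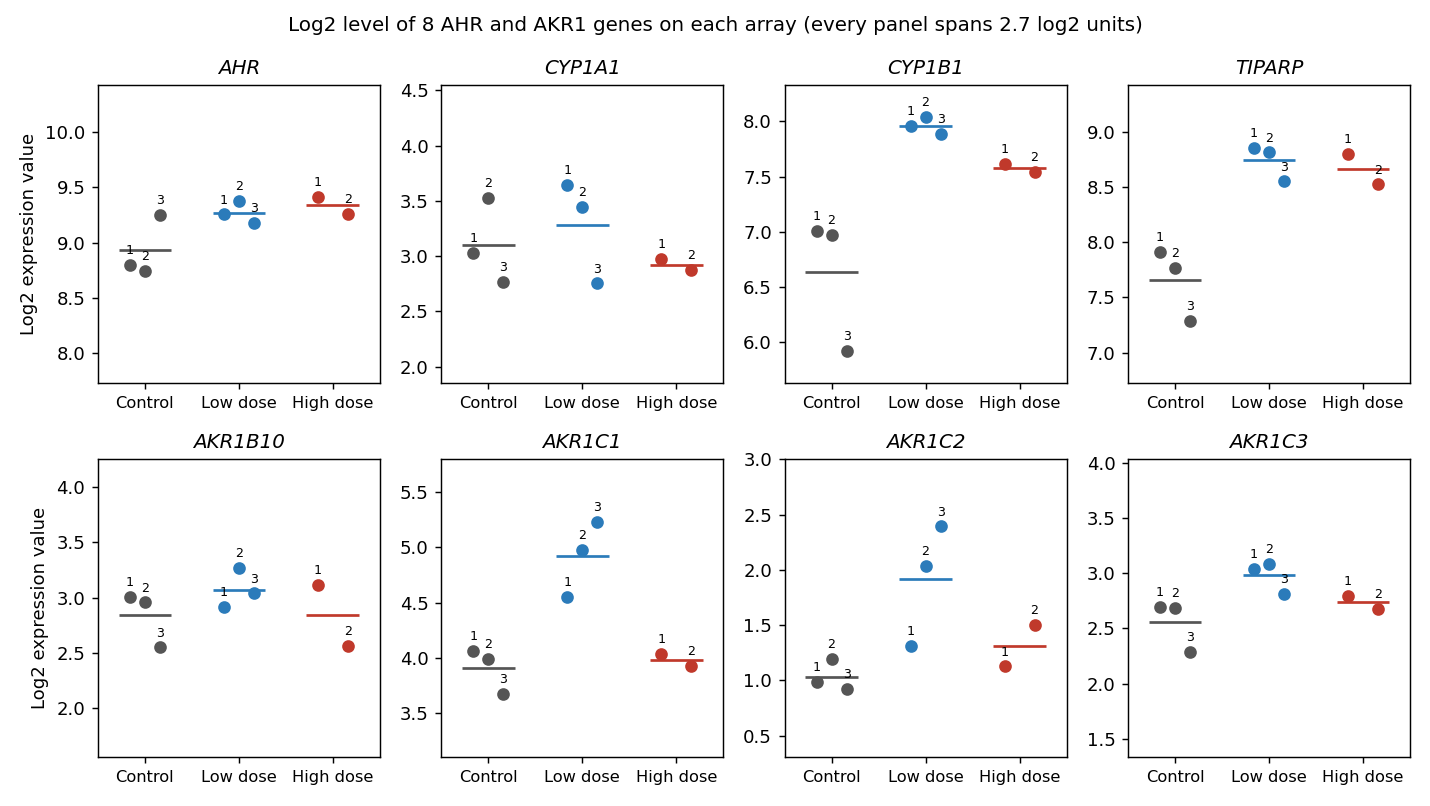
Log2 expression value (vertical axis) of the 8 measured genes on each control, low-dose and high-dose array; points are single arrays marked with their replicate number, and horizontal bars are group means (3, 3 and 2 arrays). CYP1B1 and TIPARP lie above all controls on all 5 treated arrays, whereas AKR1C1 lies above all controls on the low-dose arrays and within the control range on the high-dose arrays.

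AHR, the receptor itself, read 8.80, 8.74 and 9.25 in the controls, 9.26, 9.38 and 9.18 at the low dose and 9.41 and 9.26 at the high dose (log2 level). Control 3 stood at the level of the treated arrays, and the low-dose and control groups overlapped. The high-dose arrays lay above all controls, but by only a small gap over control 3. Non-overlap in this direction was seen in 7.07% of all genes at the high dose. The difference from control was 0.41 ± 0.19 at the high dose (SE; 95% interval -0.02 to 0.83; limma adjusted p = 0.361) and 0.34 ± 0.17 at the low dose (-0.04 to 0.72; adjusted p = 0.419). Without control 3 these were 0.57 (adjusted p = 0.0916) and 0.50 (adjusted p = 0.144). With array weights they were 0.53 (adjusted p = 0.101) and 0.51 (adjusted p = 0.0206), so the low-dose difference passed under that setting. A further setting, chosen after seeing the data, left out control 3, low 3 and high 2 and so kept 1 high array. The differences were then 0.64 and 0.54.

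CYP1B1, which oxidises estradiol and polycyclic aromatic hydrocarbons, read 7.01, 6.97 and 5.92 in the controls, 7.96, 8.04 and 7.89 at the low dose and 7.62 and 7.54 at the high dose. All treated arrays lay above all controls, and control 3 was more than 1 log2 unit below the other controls. The rise at the low dose was 1.33 ± 0.26 (95% interval 0.77 to 1.89; limma adjusted p = 0.0174), a 2.51-fold difference. The high-dose difference was 0.95 ± 0.29 (0.32 to 1.57), a 1.93-fold difference, and did not pass (adjusted p = 0.168). Without control 3 the differences were 0.97 at the low dose (adjusted p = 0.00590) and 0.59 at the high dose (adjusted p = 0.0735). The call at the low dose ended when any of the low-dose arrays was left out, at adjusted p = 0.0679 without low 1, 0.0789 without low 2 and 0.0562 without low 3.

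TIPARP, an ADP-ribosyltransferase that represses the receptor, read 7.91, 7.76 and 7.29 in the controls, 8.86, 8.81 and 8.55 at the low dose and 8.80 and 8.52 at the high dose. The treated arrays were again all above the controls, and within each group the array that stood apart from the rest gave the lowest value. The rise at the low dose was 1.08 ± 0.19 (95% interval 0.66 to 1.51; limma adjusted p = 0.0116). The high-dose difference was close in size, 1.01 ± 0.21 (0.53 to 1.48), and missed the threshold (adjusted p = 0.0636). It passed under 8 of 17 other settings, among them quantile normalization (1.17; adjusted p = 0.0110), subtraction of array medians (1.10; adjusted p = 0.0179) and leaving out control 3 (0.82; adjusted p = 0.0349). The 8 include the setting, chosen after seeing the data, without control 3, low 3 and high 2. The high-dose difference did not pass with only the 2 groups compared (adjusted p = 0.155). Nor did it pass when any single array other than control 3 was left out (adjusted p of 0.0607 to 0.234). The low-dose call ended without low 1 (adjusted p = 0.0585) and without low 2 (adjusted p = 0.0620).

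CYP1A1, the target most often used as a readout of the receptor, was dim and read 3.03, 3.52 and 2.76 in the controls, 3.65, 3.44 and 2.75 at the low dose and 2.97 and 2.87 at the high dose. The 3 groups overlapped, and control 3 and low 3 were the lowest arrays. Its difference from control was -0.18 ± 0.28 at the high dose (95% interval -0.80 to 0.44; limma adjusted p = 0.819) and 0.18 ± 0.25 at the low dose (-0.38 to 0.73; adjusted p = 0.849). The CYP1A1 window and 1 of the 3 TIPARP windows held the receptor's core motif, as did 32.2% of all windows.

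**Figure D2:**
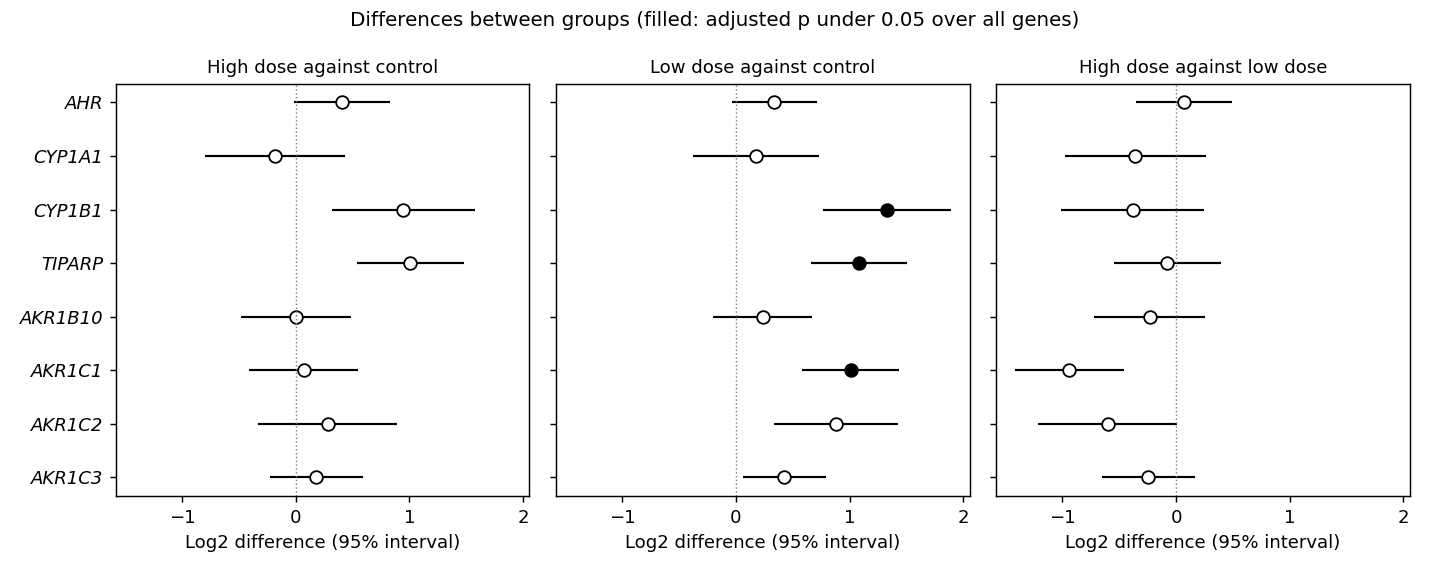
Log2 differences (horizontal axis) of the 8 genes in the 3 comparisons, with 95% intervals from the fit over all arrays; filled points passed an adjusted p of 0.05 over all genes. Filled points are those of CYP1B1, TIPARP and AKR1C1 at the low dose, and the interval of AKR1C1 between the doses runs from -1.42 to -0.46.

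AKR1C1, which reduces carbonyls and inactivates progesterone, read 4.06, 3.99 and 3.68 in the controls, 4.55, 4.98 and 5.23 at the low dose and 4.03 and 3.93 at the high dose. Every low-dose array was above every control and every high-dose array, and the high-dose arrays lay inside the control range. The rise at the low dose was 1.01 ± 0.19 (95% interval 0.58 to 1.44; limma adjusted p = 0.0174), a 2.01-fold difference. At the high dose the difference from control was 0.07 ± 0.22 (-0.41 to 0.55; adjusted p = 0.917). The low-dose call ended without low 2 (0.98; adjusted p = 0.0844) and without low 3 (0.86; adjusted p = 0.0596), with the replicate block over the control and low arrays alone (adjusted p = 0.0660), and with control 3, low 3 and high 2 left out together (0.74; adjusted p = 0.0559).

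AKR1C2, which inactivates dihydrotestosterone, was dim and read 0.98, 1.19 and 0.92 in the controls, 1.31, 2.04 and 2.39 at the low dose and 1.13 and 1.50 at the high dose. Low 1 was the lowest and low 3 the highest low-dose array, as for AKR1C1, and high 2 exceeded low 1. The difference at the low dose was 0.88 ± 0.25 (95% interval 0.33 to 1.43) and did not pass (limma adjusted p = 0.0961), whereas it passed with the replicate number as a block over all arrays (adjusted p = 0.0395) and without low 1 (1.18; adjusted p = 0.0245). With the block over the control and low arrays alone it did not (adjusted p = 0.105). At the high dose it was 0.28 ± 0.28 (-0.33 to 0.89; adjusted p = 0.696).

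AKR1C3, which makes testosterone and prostaglandin F from their ketone precursors, read 2.69, 2.68 and 2.29 in the controls, 3.03, 3.09 and 2.81 at the low dose and 2.79 and 2.68 at the high dose. The low-dose arrays lay above the controls, with a difference of 0.42 ± 0.17 (95% interval 0.06 to 0.79) that did not pass (limma adjusted p = 0.260). Its high-dose difference was 0.18 ± 0.19 (-0.23 to 0.59; adjusted p = 0.708). AKR1B10, a reductase of retinal and lipid aldehydes, read 3.01, 2.96 and 2.55 in the controls, 2.92, 3.27 and 3.04 at the low dose and 3.12 and 2.57 at the high dose. Its groups overlapped, with differences of 0.0017 ± 0.22 at the high dose (-0.48 to 0.49; adjusted p = 0.998) and 0.24 ± 0.20 at the low dose (-0.20 to 0.67; adjusted p = 0.695). In all, 5 of the 8 genes had low-dose arrays wholly above the controls, as did 7.03% of all genes.

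The treated groups were then compared with each other. None of the 8 genes passed in limma, where 1 gene of 22109 (0.00452%) was called, the metallothionein MT1M, named here after its value was seen. AKR1C1 was the only member at an unadjusted p under 0.05, and 6.10% of all genes were lower at that mark. Its level was 3.98 ± 0.07 at the high dose and 4.92 ± 0.34 at the low dose (SD, n = 2 and 3), a difference of -0.94 ± 0.22 (SE; 95% interval -1.42 to -0.46; adjusted p = 0.303). The arrays did not overlap, which was also so for CYP1B1 and AKR1C3, all 3 with the high dose below the low dose, a pattern seen in 16.7% of all genes. The difference of AKR1C2 was -0.60 ± 0.28 (-1.21 to 0.01; adjusted p = 0.581) and that of CYP1B1 -0.38 ± 0.29 (-1.01 to 0.25; adjusted p = 0.727). TIPARP differed by -0.08 ± 0.21 (-0.55 to 0.39) and AHR by 0.07 ± 0.19 (-0.35 to 0.49). For the remaining genes the intervals were -0.98 to 0.26 for CYP1A1, -0.72 to 0.25 for AKR1B10 and -0.65 to 0.17 for AKR1C3. Over 17 other settings the difference of AKR1C1 ran from -1.12 to -0.73, with adjusted p-values of 0.0603 (without control 3) to 0.780 (without low 2).

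**Figure D3:**
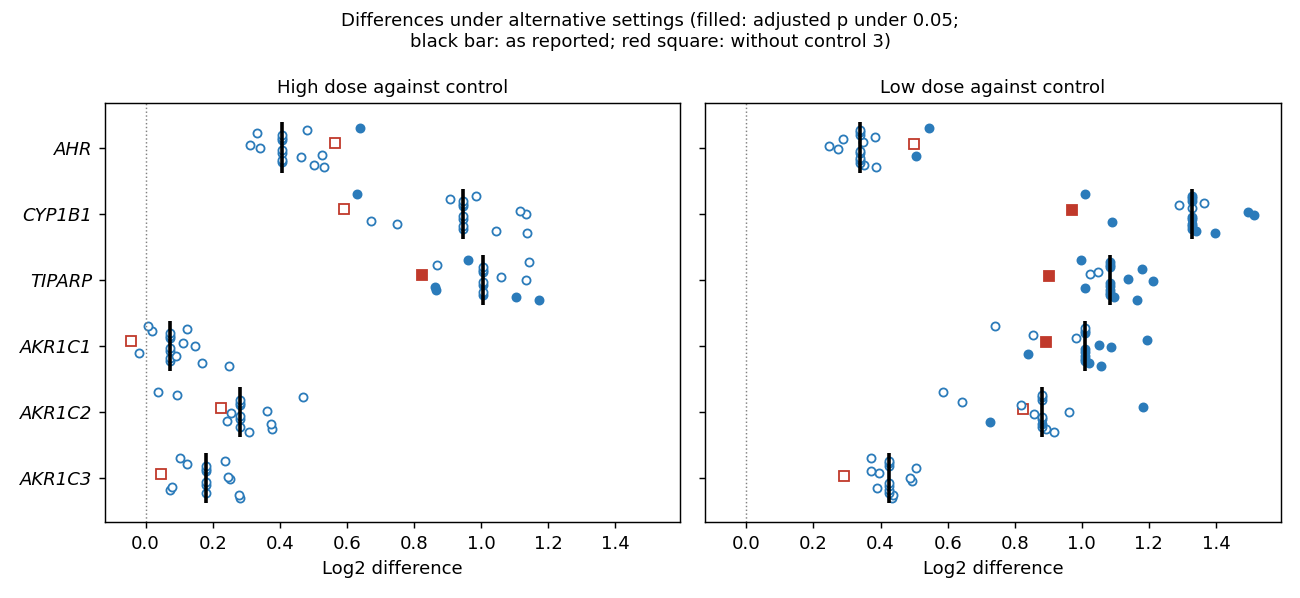
Log2 difference from control (horizontal axis) of 6 genes at each dose under the alternative settings (points, 16 or 17 a gene at the high dose and 17 or 18 at the low dose), with the reported value as a black bar and the value without control 3 as a red square; filled points passed an adjusted p of 0.05. TIPARP ran from 0.82 to 1.17 at the high dose and from 0.90 to 1.21 at the low dose, and AKR1C1 from -0.04 to 0.25 at the high dose and from 0.74 to 1.19 at the low dose.

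The wider receptor pathway was described by 2 lists. Of 11 measured genes of the receptor complex and its cofactors, which include the partner ARNT and the chaperones HSP90AA1 and HSP90AB1, none was called at either dose. At an unadjusted p under 0.05, 1 was higher at the high dose and 2 at the low dose, where 3.03% and 5.38% of all genes were. None was lower at that mark. The medians of the 11 genes were 0.12 and 0.14. Of 16 measured genes on a list of receptor targets, 1 rose at the high dose, and at the low dose 2 rose and 1 fell. Over all genes 0.425% rose and 0.389% fell at the high dose, and 1.19% rose and 1.81% fell at the low dose. The risen genes at the low dose were CYP1B1 and TIPARP. EREG, which encodes the growth factor epiregulin, rose at the high dose. It read 7.51 and 7.07 at the high dose, against 5.72, 5.72 and 6.22 in the controls, a difference of 1.40 ± 0.26 (limma adjusted p = 0.0356). At the low dose the EREG difference was 0.31 ± 0.23 (adjusted p = 0.630). It passed there with array weights (0.60; adjusted p = 0.0230) and with control 3, low 3 and high 2 left out (0.70; adjusted p = 0.0225). Between the doses it was 1.09 ± 0.26 (adjusted p = 0.308). Its high-dose call ended under 7 of 17 other settings, among them leaving out high 1 (1.18; adjusted p = 0.189), high 2 (1.62; adjusted p = 0.143), control 1 (1.32; adjusted p = 0.129), control 2 (1.32; adjusted p = 0.124), low 1 (adjusted p = 0.0580) or low 2 (adjusted p = 0.0650). LPAR1, a receptor for lysophosphatidic acid, fell at the low dose, to 6.17, 6.18 and 5.65 against 7.10, 7.23 and 6.92 in the controls (-1.08 ± 0.19; adjusted p = 0.0114).

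Among the aldo-keto reductases of all families, 13 genes were measured and AKR1C1 was the only call, at the low dose. Over all genes 1.19% were called higher and 1.81% lower at the low dose, and 0.425% higher and 0.389% lower at the high dose. The medians of this list were -0.04 at the high dose and 0.13 at the low dose, beside -0.12 and -0.04 over all genes. At an unadjusted p under 0.05, 5 of the 13 were higher at the low dose, where 5.38% of all genes were. These 5 include AKR1C1, AKR1C2 and AKR1C3, which were already counted above. Only 9 of the 13 genes lie outside the set described here. At that mark 1 of the 13 was lower at the high dose, where 11.4% of all genes were. Of 17 other genes of carbonyl and aldehyde metabolism, DHRS9, a retinol and steroid dehydrogenase, was called at both doses. It read 4.17 and 4.08 at the high dose, against 3.21, 2.94 and 3.08 in the controls (1.05 ± 0.20; limma adjusted p = 0.0438). At the low dose DHRS9 read 4.64, 4.26 and 4.01 (1.23 ± 0.18; adjusted p = 0.00522). Its high-dose call ended under 8 of 16 other settings, including without control 1 (adjusted p = 0.113), control 2 (0.150), low 1 (0.0509), low 2 (0.0901), high 1 (0.178) or high 2 (0.242). ALDH1B1, a mitochondrial aldehyde dehydrogenase, fell at the high dose, to 5.00 and 4.62 against 6.30, 6.64 and 5.86 in the controls (-1.45 ± 0.24; adjusted p = 0.0215). That call ended without control 1 (adjusted p = 0.0934), control 2 (0.0728), high 1 (0.0915) or high 2 (0.233), and at the low dose the difference was -0.60 ± 0.21 (adjusted p = 0.200). The low-dose difference of ALDH1B1 passed without control 3 (-0.80; adjusted p = 0.0477) and with array weights (-0.72; adjusted p = 0.0104).

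Lists of other drug and steroid metabolism held few calls. Over all genes 1.19% rose and 1.81% fell at the low dose, and 0.425% rose and 0.389% fell at the high dose. Of 19 genes of steroid and prostaglandin handling, PTGES, the inducible prostaglandin E synthase, rose at the low dose (0.78 ± 0.18; limma adjusted p = 0.0429) and none passed at the high dose. At the high dose PTGES differed by 0.66 ± 0.20 (adjusted p = 0.171) and passed with quantile normalization (0.89; adjusted p = 0.0111). The PTGES call ended under 9 of 18 other settings, with adjusted p-values of up to 0.189. These included leaving out any of control 1, 2 and 3 (adjusted p = 0.104, 0.105 and 0.0810), low 1 (0.153), low 2 (0.189) or either high array (0.0605 each). Of 17 other cytochromes and partners, CYP2R1, a vitamin D hydroxylase, fell at the low dose (-0.75 ± 0.17; adjusted p = 0.0374). The CYP2R1 call ended when any of control 1, 2 and 3 (adjusted p = 0.0674, 0.0968 and 0.0771) or low 1, 2 and 3 (0.146, 0.0992 and 0.0916) was left out. None of 25 genes of conjugation and export was called. At an unadjusted p under 0.05, 1 of these was higher and 3 lower at the high dose, and 1 higher and 2 lower at the low dose. Of all genes 3.03% were higher and 11.4% lower at that mark at the high dose, and 5.38% higher and 8.77% lower at the low dose.

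The NRF2 list, which holds NRF2 and antioxidant targets but no AKR1 gene, had 22 measured genes. Of these, 6 rose at the low dose, where 1.19% of all genes rose, and 3 at the high dose, where 0.425% rose. None fell, where 1.81% of all genes fell at the low dose and 0.389% at the high dose. The median of the list was 0.47 at the low dose and 0.06 at the high dose. HMOX1, which degrades heme, read 6.35 and 6.08 at the high dose, against 4.47, 4.70 and 3.65 in the controls (1.95 ± 0.30; limma adjusted p = 0.0164), and 6.99, 7.12 and 6.49 at the low dose (2.60 ± 0.27; adjusted p = 0.00118). UGDH, which makes the UDP-glucuronate used in conjugation, rose at both doses, by 1.24 ± 0.18 at the high dose (adjusted p = 0.0116) and 1.19 ± 0.16 at the low dose (adjusted p = 0.00333). The other gene called at the high dose was the cystine transporter SLC7A11 (1.05 ± 0.21; adjusted p = 0.0464), which was named after its value was seen. SLC7A11 was also called at the low dose (0.80 ± 0.18; adjusted p = 0.0425), a call that ended when any control or low array was left out. MAFG, a small partner of NRF2, rose at the low dose (1.12 ± 0.19; adjusted p = 0.00874), as did GCLC, which starts glutathione synthesis (0.89 ± 0.18; adjusted p = 0.0247). At the high dose MAFG and GCLC differed by 0.73 ± 0.21 (adjusted p = 0.148) and 0.93 ± 0.20 (adjusted p = 0.0705). With quantile normalization both passed there (adjusted p = 0.0238 and 0.00696). NQO1, a target of both NRF2 and the receptor that was also named after its values were seen, did not pass, with 0.59 ± 0.30 at the low dose and -0.43 ± 0.33 at the high dose. The NQO1 difference between the doses was -1.02 ± 0.33 (adjusted p = 0.443). At the high dose the HMOX1 call ended without high 1 (adjusted p = 0.137) or high 2 (0.116), and the UGDH call without control 1 (0.0609), control 2 (0.0526), high 1 (0.107) or high 2 (0.0541). The SLC7A11 call at the high dose ended under 8 of 17 other settings, including without any array but control 3 (adjusted p of 0.0521 to 0.208), and the GCLC call at the low dose ended without control 1 (0.0965), low 1 (0.107) or low 2 (0.0866), and with the replicate block over the control and low arrays alone (0.0530).

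**Figure D4:**
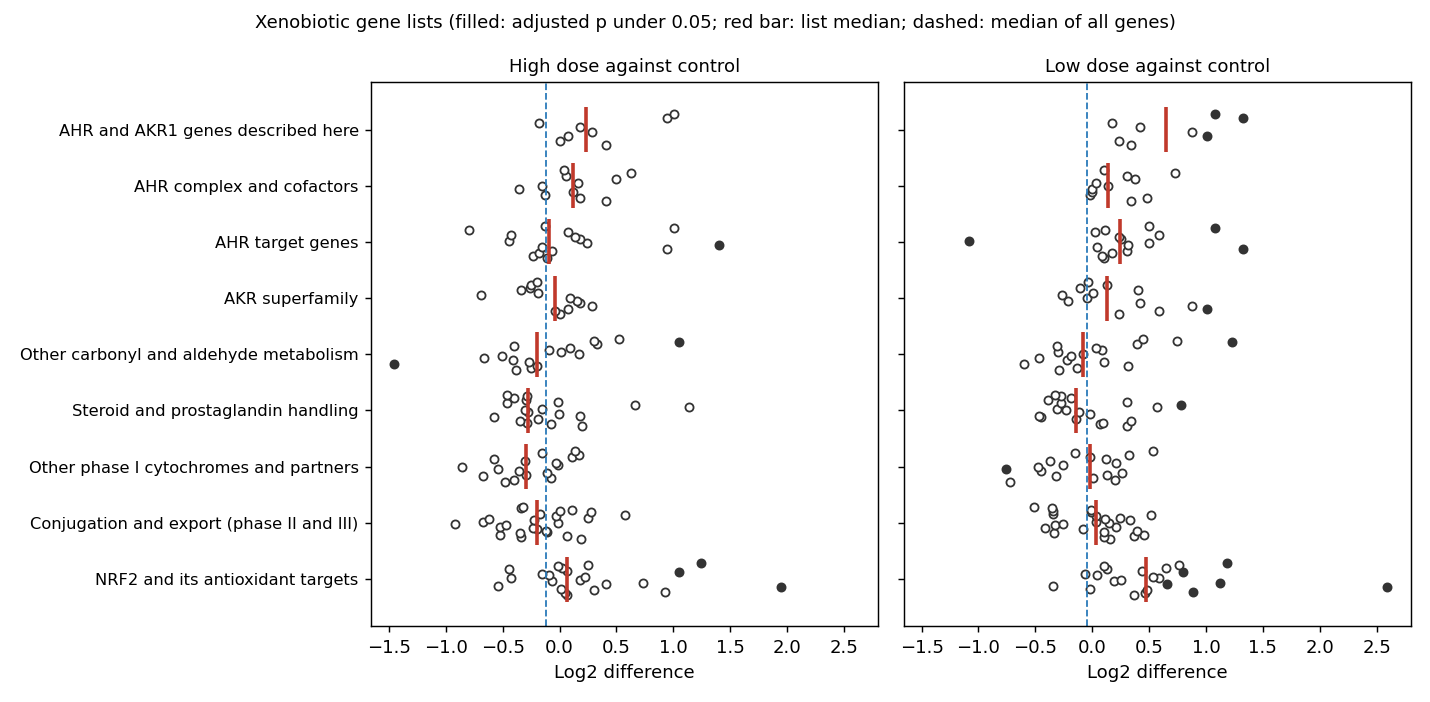
Log2 difference from control (horizontal axis) at the high dose (left) and the low dose (right) for the genes of 9 lists of receptor and drug metabolism; each point is a gene, filled where the adjusted p was under 0.05, the red bar is the list median and the dashed line the median of all genes. The NRF2 list holds 3 filled points at the high dose and 6 at the low dose, and the median of the 8 genes described here is 0.65 at the low dose.

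The genes most like TIPARP and CYP1B1, the members with the largest differences at both doses, were sought among 4704 protein-coding genes with a mean log2 level of at least 5. Likeness was the root mean square difference over the 8 arrays after the control mean was subtracted. Nearest to TIPARP were SQLE of cholesterol synthesis (0.11 log2 units), the insulin receptor adaptor IRS2 (0.11) and the lysosomal protease CTSL (0.12). Nearest to CYP1B1 were the immediate early gene IER3 (0.09), the macrophage growth factor CSF1 (0.11) and the autophagy receptor SQSTM1 (0.11). Control 3 was the lowest control in all 6 of these genes, as it was in TIPARP and CYP1B1. The 8 arrays of the search included control 3, so this follows largely from how the genes were chosen. IER3, for example, read 8.45, 8.35 and 7.52 in the controls, 9.50, 9.61 and 9.23 at the low dose and 9.10 and 8.97 at the high dose.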

How the data were processed

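The members and gene lists were chosen with earlier results of these data known, so none is independent evidence. Expression came as deposited log2 values for 53617 probe sets. The submitters' processing notes list the Transcriptome Analysis Console as the authors' software, and how it summarized and normalized the arrays is not given in the sources used here. That the scale is log2 was read from the maximum, 12.10, which is above the natural logarithm of a 16-bit ceiling (11.09). Values were used as deposited. Of the rows, 23558 carried 1 gene symbol, 2155 several and 27904 none in the platform annotation. Symbols were updated through RefSeq (GRCh38.p14), and the row with the highest mean was kept for the 618 genes with several, leaving 22109 genes. No member had more than 1 row.

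Group means were estimated by limma (version 3.58.1, R 4.3.3) from the 8 arrays together (5 residual and 6.00 prior degrees of freedom), with Benjamini-Hochberg adjustment over all genes and a threshold of 0.05. The fit was first run on simulated data with noise independent between arrays. Those data held no shift shared by arrays such as control 3, low 3 and high 2, so the run does not bear on such shifts. Text names every member, up to 4 other called genes of each list by adjusted p, and 3 genes of like pattern for each of the leading members. Deviations from group means correlated at 0.103, 0.153 and 0.203 between control and low arrays of the same number. Control and low arrays of unlike number gave -0.179 to 0.122, and control 1 correlated more with low 2 (0.122) than with low 1. These values do not settle whether the numbers pair the arrays. Reported values come from the fit without a block, and for members a blocked value is given where it changes a call. With the block over all arrays GCLC, SQLE, IRS2 and CTSL also passed at the high dose (limma adjusted p = 0.0413, 0.0365, 0.0475 and 0.0293). For high and control arrays of the same number the correlations were 0.094 and -0.049, and pairing was not taken. Alternatives covered normalization, centring, a filter on dim genes, row choice, a replicate block, array weights, a variance trend, the arrays in the fit and leaving out each array.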

Additional observations from a re-analysis of the deposited data

How the results depend on the processing

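Over 404 combinations of the 24 differences of the 8 genes with 18 alternative settings, 366 kept direction and side of the threshold, 9 lost a call, 15 gained one and 14 turned direction, none of which was a called difference. The number of members called at the high dose was 1 in place of 0 with quantile normalization, subtracted array medians, the filter on dim genes, the replicate block, array weights or a variance trend, 3 with control 3, low 3 and high 2 left out together (chosen after seeing the data), and 0 to 1 when 1 array was left out. At the low dose it was 5 with array weights in place of 3, with AHR and AKR1C2 added. It was 0 to 3 when 1 array was left out, being 0 without low 2 and 1 without low 3. Between the doses it was 0 throughout. Of all genes, 180 were called at the high dose as reported, 459 with quantile normalization, 283 with medians subtracted, 1228 with the replicate block, 1004 with array weights, 46 with only the 2 groups compared, 1563 without the 3 arrays, and 19 to 990 when 1 array was left out (990 without control 3). At the low dose 664 were called, 1182 with quantile normalization, 1059 with the block, 2055 with weights, 1278 without the 3 arrays, and 266 to 658 when 1 was left out. Between the doses 1 was called, 2 with quantile normalization, 0 with the dim filter, 219 with the block, 69 with weights, 53 with only the 2 groups, 220 without the 3 arrays, and 0 to 174 when 1 was left out. Apart from AKR1C2 at the low dose and TIPARP at the high dose (0.87; adjusted p = 0.0252), the block over all arrays changed no call of a member.

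None of the turned differences passed the test. At the high dose AKR1B10 was -0.079 with the block and -0.11 with weights, and -0.27 to 0.28 when 1 array was left out. AKR1C1 was -0.019 with weights and -0.044 to 0.15 when 1 was left out, and CYP1A1 -0.35 to 0.029. At the low dose CYP1A1 was -0.0074 to 0.44 when 1 was left out. Between the doses TIPARP was 0.0096 with quantile normalization and 0.0075 with medians subtracted, and -0.22 to 0.060 when 1 was left out. AKR1B10 was 0.024 without the 3 arrays and -0.51 to 0.042 when 1 was left out, and AHR -0.0070 to 0.14. The cause of these changes was not tested. A low signal with no background measure limits CYP1A1, AKR1B10, AKR1C2 and AKR1C3, and AKR1C1 outside the low dose.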
